A study of Mus musculus with 6 samples.

Results

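The miR-15/16 family and its relatives were followed in extracellular vesicles (EVs) from mouse colon explants and from bone marrow-derived dendritic cells (BMDCs). Members were chosen by name, as the rows of the count table that were an arm of miR-15a, miR-15b, miR-16, miR-195a, miR-497a, miR-322, miR-351 or miR-503 and stood on a list of 10 arms. All 10 were present among the 1966 mature miRNAs of the table. They fell into 3 gene groups. The miR-15/16 group held mmu-miR-15a-5p, mmu-miR-15b-5p, mmu-miR-15b-3p and mmu-miR-16-5p. The miR-195/miR-497 group held mmu-miR-195a-5p and mmu-miR-497a-5p. The miR-322/miR-503/miR-351 group held mmu-miR-322-5p, mmu-miR-322-3p, mmu-miR-351-5p and mmu-miR-503-5p. Of the 10 members, 7 reached 10 counts in 3 or more libraries and were tested, among 220 miRNAs tested in all. They were 4 of 4 arms of the first group, 0 of 2 of the second and 3 of 4 of the third.

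The study sequenced small RNA of 3 colon EV and 3 BMDC EV preparations to learn which miRNAs the vesicles of both sources carried. Colon explants, pieces of opened colon held in medium with exosome-depleted serum for 16 hours, gave EVs from a mixture of the cells of the tissue. BMDCs were grown from marrow with GM-CSF until day 7 in complete medium. All 6 libraries were labelled with the strain Rab27A fl/fl, a floxed allele of a small GTPase of exosome release, and the labels named no Cre, no treatment and no age. Differential centrifugation was followed by an iodixanol density gradient, of which fraction 2 was sequenced, for colon EVs alone according to the labels. The text of the paper is not uniform on this point and in 1 place gives the gradient to BMDC EVs too. Source and medium cannot be told apart, nor can the isolation if the labels hold. The labels did not state that replicates came from separate animals or cultures, and p-values measure the spread between these preparations.

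Total counts were between 173358 and 645303 in colon EVs and between 83997 and 178454 in BMDC EVs. A count of 3 corresponded to 4.65 to 17.3 CPM (counts scaled to the size of a library) for colon libraries, and 16.8 to 35.7 CPM for BMDC libraries. Levels below are CPM on the scale of TMM (trimmed mean of M values), which brings libraries to a shared scale, and they compare reads per mature miRNA, all members being 21 to 24 nucleotides long. Markers fit the labelled sources. The summed level of 8 miRNAs of epithelium ranged from 246921 to 381341 CPM in colon EVs and from 3360 to 6656 CPM in BMDC EVs. The summed level of 7 miRNAs of immune cells ranged from 6582 to 12954 CPM and from 251700 to 290377 CPM, respectively. Colon EVs were higher in all 8 of the former and BMDC EVs in all 7 of the latter by edgeR's test. These lists moved with the source in every comparison below, and their part in the results was not tested.

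miRNAs guide Argonaute proteins to messenger RNAs, mainly by pairing of the seed, bases 2 to 8 from the 5′ end, with the 3′ UTR of the target. miR-15a and miR-16 are known as repressors of the cell cycle and of the survival factor Bcl2, and their host gene Dleu2 lies in a region whose human counterpart is often deleted in chronic lymphocytic leukemia. miR-195 and miR-497 form a further gene pair with the same seed. miR-322, the mouse counterpart of human miR-424, and miR-503 lie together on chromosome X and are known from muscle differentiation and from the cell cycle. miR-351 lies beside them but carries the seed of miR-125, the vertebrate relative of lin-4.

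The mature sequences show which members could share targets and which could share reads. They are printed 5′ to 3′ from RefSeq as given with GRCm38.p6, with the seed in capitals.

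mmu-miR-16-5p: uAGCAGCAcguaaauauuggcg
mmu-miR-15a-5p: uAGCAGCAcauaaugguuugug
mmu-miR-15b-5p: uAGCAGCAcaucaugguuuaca
mmu-miR-195a-5p: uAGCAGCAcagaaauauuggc
mmu-miR-497a-5p: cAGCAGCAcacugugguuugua
mmu-miR-322-5p: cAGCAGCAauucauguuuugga
mmu-miR-503-5p: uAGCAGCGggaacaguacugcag
mmu-miR-351-5p: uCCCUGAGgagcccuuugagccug
mmu-miR-15b-3p: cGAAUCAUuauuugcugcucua
mmu-miR-322-3p: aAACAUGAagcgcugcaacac

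Of the 10 members, 6 carried the seed of miR-16-5p, and 4 further miRNAs with this seed, miR-195b, miR-6342, miR-6353 and miR-6419, were listed at 0 in every library. The seed of miR-503-5p was found in no other miRNA of the table among the 1675 with a sequence in RefSeq. Within the first seed, sequences beyond the seed differed by unequal amounts. miR-195a-5p differed from miR-16-5p by G10A and U11G over 21 compared positions, where the first letter is the base of miR-16-5p and positions count from the 5′ end. miR-15a-5p and miR-15b-5p differed by A12C, G20A, U21C and G22A, counted in the same way from miR-15a-5p. miR-322-5p and miR-16-5p differed at 10 of 22 positions. miR-351-5p shared its seed with 4 listed miRNAs that are no members, of which miR-6367 and miR-6394 were at 0 in every library. The other 2, which the seed comparison below turns on, part from miR-351-5p just after the seed.

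mmu-miR-125a-5p: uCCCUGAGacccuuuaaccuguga
mmu-miR-125b-5p: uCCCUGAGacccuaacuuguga

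The hairpins of the members lie in 4 small clusters. Positions are 1-based on GRCm38 with the GENCODE vM21 annotation. Mir15a (chr14:61632027-61632110, minus strand) lies in an intron of the long noncoding RNA gene Dleu2, and Mir16-1 (chr14:61631880-61631972, minus strand), 54 bases from it, in a stretch that is exonic in some Dleu2 transcripts. Mir15b (chr3:69009772-69009835, plus strand) and Mir16-2 (chr3:69009902-69009996, plus strand) are 66 bases apart in an intron of Smc4, which encodes a condensin subunit. Mature miR-16-5p is thus the product of 2 loci that its reads cannot tell apart. Mir497 (chr11:70234717-70234800, plus strand) and Mir195a (chr11:70235042-70235135, plus strand) are 241 bases apart between annotated genes of their strand. Mir351 (chrX:53053255-53053353, minus strand), Mir503 (chrX:53053984-53054054, minus strand) and Mir322 (chrX:53054255-53054349, minus strand) lie within 1095 bases, also between annotated genes of their strand. Hairpins that the RefSeq table held for the loci with both arms in the results, or with a member high in 1 source, are printed with the mature arms in capitals.

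Mir15b: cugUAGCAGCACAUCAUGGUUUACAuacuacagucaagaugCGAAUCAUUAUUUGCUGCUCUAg
Mir195a: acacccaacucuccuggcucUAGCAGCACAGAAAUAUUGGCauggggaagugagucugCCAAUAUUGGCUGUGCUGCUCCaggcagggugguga
Mir322: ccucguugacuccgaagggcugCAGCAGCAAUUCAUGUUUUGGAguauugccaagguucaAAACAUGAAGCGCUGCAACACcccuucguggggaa
Mir503: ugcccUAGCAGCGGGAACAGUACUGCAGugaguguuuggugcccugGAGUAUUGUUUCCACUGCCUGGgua

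The 3 groups stood at very different levels, and miR-16-5p alone made up most of the family in both sources. The 10 members together held 3.55% ± 0.438 (SD, n = 3) of all counts in colon EVs and 11.0% ± 2.31 in BMDC EVs. In colon EVs the order by mean level was miR-16-5p, miR-15b-5p, miR-15a-5p, miR-322-5p, miR-351-5p, miR-195a-5p, miR-15b-3p, miR-503-5p, miR-497a-5p and miR-322-3p. The first 4 were apart from each other in every library, whereas miR-322-5p overlapped with miR-351-5p, miR-351-5p with miR-195a-5p, and from miR-15b-3p downward each neighbour overlapped with the next. In BMDC EVs the order was miR-16-5p, miR-15b-5p, miR-351-5p, miR-322-5p, miR-15a-5p, miR-503-5p, miR-15b-3p, miR-322-3p, miR-195a-5p and miR-497a-5p. There only miR-351-5p and miR-322-5p, and the last 3, overlapped with a neighbour.

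**Figure D1:**
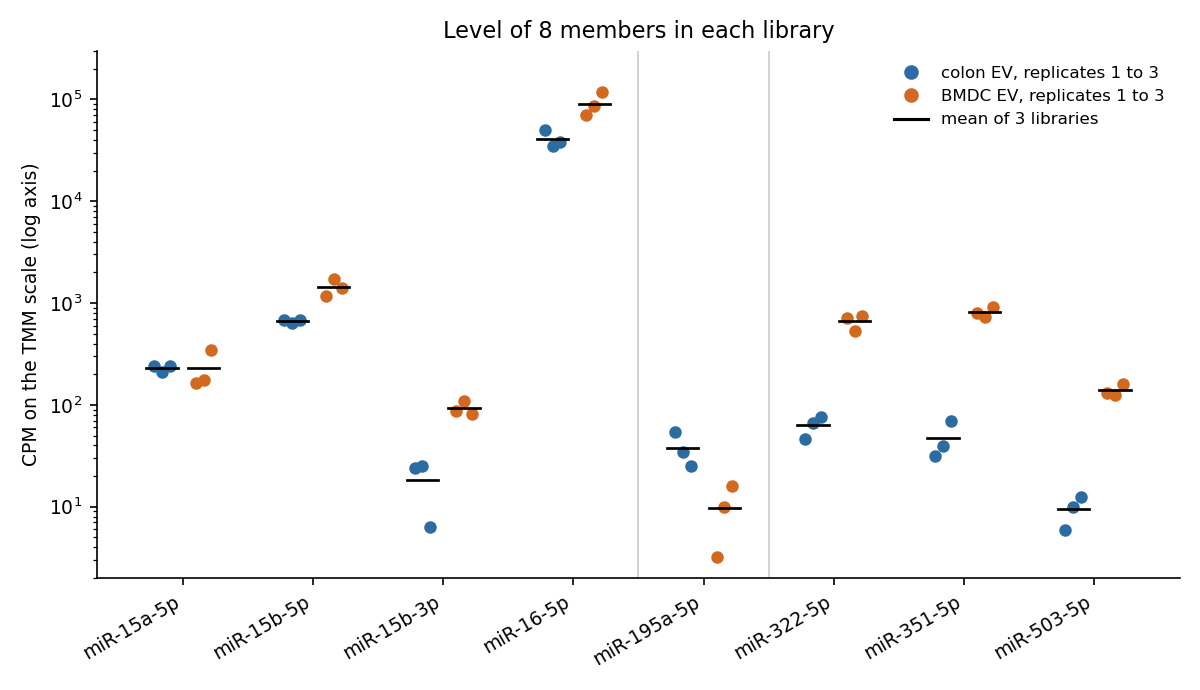
Level of 8 members in each library, as CPM on the TMM scale on a log axis, with colon EV libraries in blue, BMDC EV libraries in orange and the mean of 3 libraries as a black line. Grey lines part the miR-15/16, miR-195/miR-497 and miR-322/miR-503/miR-351 groups; miR-15a-5p overlaps between the sources, miR-195a-5p is higher in each colon EV library, and the other 6 are higher in each BMDC EV library.

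By the quasi-likelihood test of edgeR, with p-values adjusted after Benjamini and Hochberg over all 220 tested miRNAs, 6 of the 7 tested members were called at an adjusted p under 0.05, and all 6 were higher in BMDC EVs. Among these, miR-15b-3p and miR-503-5p passed the count filter through the BMDC EV libraries. miR-195a-5p, which was higher in each colon EV library, did not reach the filter. The direction of the calls is thus partly set by the filter. Calls were common among all tested miRNAs, at 76.8% in either direction. BMDC EVs were higher for 40.5% of all tested and colon EVs for 36.4%. The libraries of the sources did not overlap for 6 of the 7 tested members and for 81.8% of all tested miRNAs. The median log2 fold change, positive where BMDC EVs were higher, was 1.12 over the 4 tested miR-15/16 arms and 3.95 over the 3 tested miR-322/miR-503/miR-351 arms, beside 0.19 over all 220 and a median size of 2.31 without sign. The value of 3.95 is that of miR-503-5p, which passed the count filter through BMDC EV libraries alone, so that these medians describe the tested arms and support no difference.

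**Figure D2:**
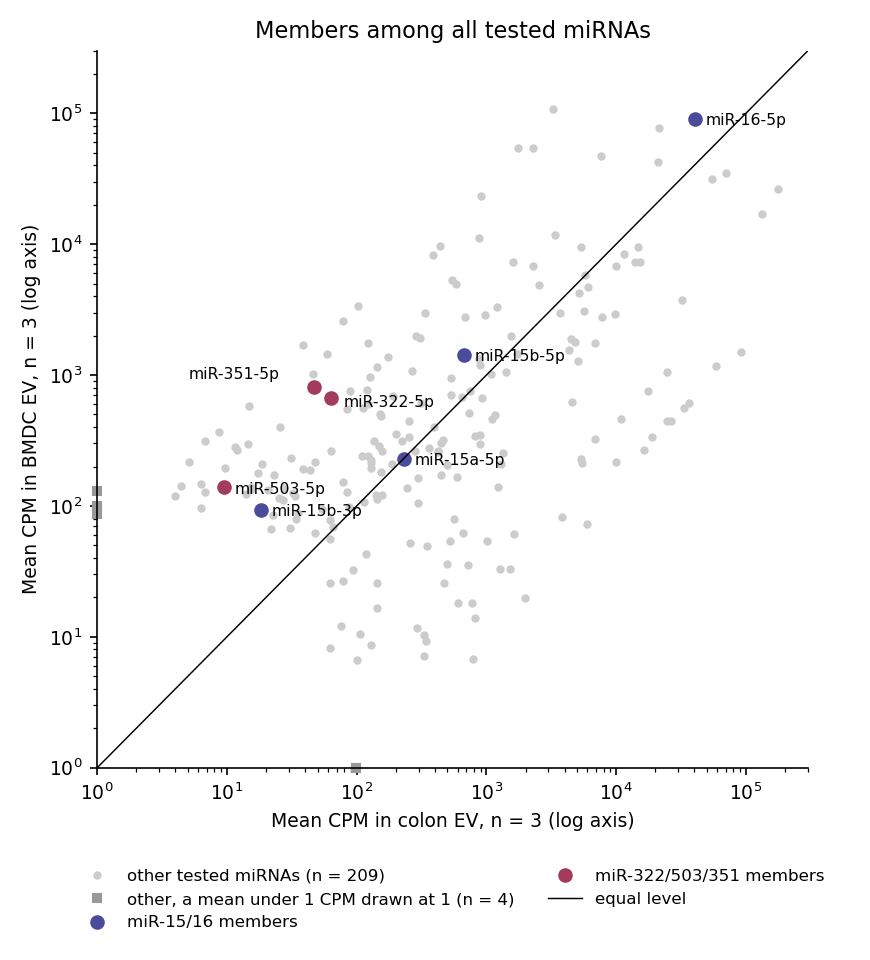
Mean CPM in BMDC EVs against mean CPM in colon EVs, both on log axes and each over 3 libraries, for the 220 tested miRNAs, with tested members in colour and named. miR-16-5p lies at the upper end of both axes a little above the line of equal level, miR-15a-5p lies on the line, and miR-322-5p, miR-351-5p and miR-503-5p lie far above it.

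miR-16-5p, the main product of the family, ranked 7 in colon EVs and 2 in BMDC EVs among the 220 tested miRNAs. Its level was 49517, 34573 and 38150 CPM in colon EV replicates 1, 2 and 3 and 70034, 85243 and 117212 CPM in BMDC EV replicates 1, 2 and 3. Every BMDC EV library was above every colon EV library. The fitted change was 2.23-fold, a log2 fold change of 1.16 (SE 0.25, adjusted p = 0.000427 by edgeR).

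miR-15b-5p, which is transcribed with Mir16-2, was at 687, 635 and 685 CPM in colon EVs and 1171, 1706 and 1407 CPM in BMDC EVs. The colon EV libraries were close to each other, and all 3 BMDC EV libraries were above them. Its log2 fold change of 1.09 (SE 0.25, edgeR adjusted p = 0.000589) was near that of miR-16-5p.

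miR-15b-3p, the opposite arm of the same hairpin, had few counts, 12, 5 and 1 in colon EVs and 13.6, 11 and 16 in BMDC EVs. On the CPM scale its mean was 18.3 ± 10.4 in colon EVs and 92.9 ± 15.4 in BMDC EVs (SD, n = 3), again without overlap. The log2 fold change was 2.18 (SE 0.54, edgeR adjusted p = 0.00133), with the limit that the arm reached 10 counts in all 3 BMDC EV libraries but in only 1 colon EV library and so passed the filter through the BMDC EV libraries.

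miR-15a-5p, the Dleu2 member, was the exception in its group. It was at 238, 211 and 242 CPM in colon EVs and at 165, 175 and 349 CPM in BMDC EVs, so that the colon EV libraries lay between the lower 2 and the highest BMDC EV library. Its log2 fold change was 0.046 (SE 0.39, edgeR adjusted p = 0.924), which does not show that the sources were alike. The sign of this value turned with the scaling, from -0.10 with DESeq2's size factors to 0.49 with library size alone, and it was -0.45 without BMDC EV replicate 3 when the count filter asked for 2 libraries, a setting added after the data were seen.

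The calls of miR-16-5p, miR-15b-5p and miR-15b-3p were lost with no count filter. In that fit, which took in more miRNAs and moved the median log2 fold change of the same 220 miRNAs by -0.49, their log2 fold changes were 0.62, 0.57 and 1.66 with adjusted p-values of 0.116, 0.169 and 0.0546. In these bulk preparations, fewer vesicles that carry a miRNA and less of it per vesicle cannot be told apart.

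**Figure D3:**
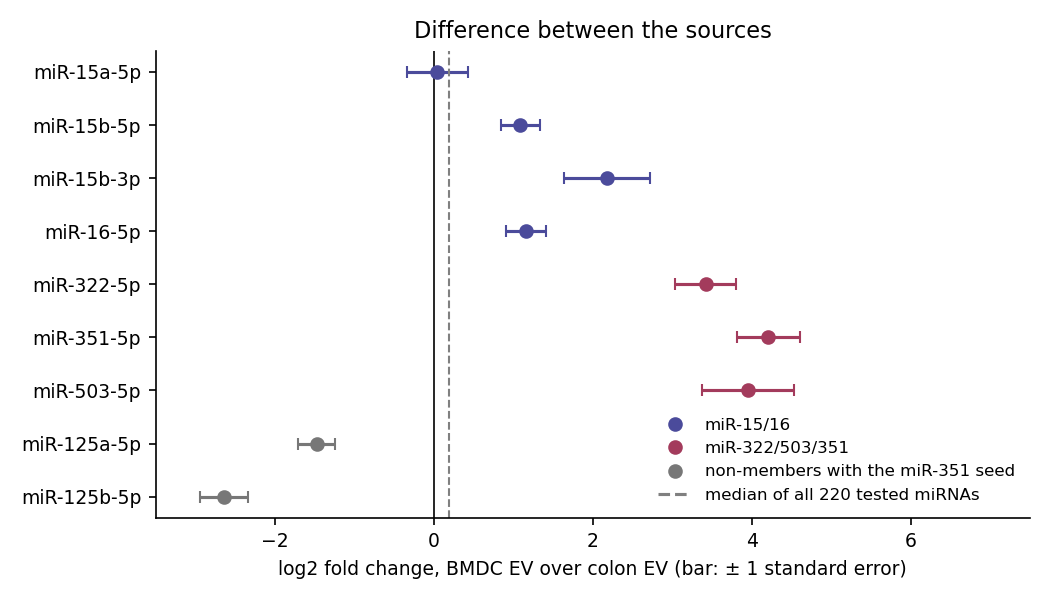
Log2 fold change of BMDC EVs over colon EVs from edgeR, with bars of 1 standard error, for the 7 tested members and the 2 tested non-members with the seed of miR-351-5p. The dashed line is the median of all 220 tested miRNAs, 0.19; the X-linked members lie between 3.42 and 4.21, the miR-15/16 arms between 0.046 and 2.18, and miR-125a-5p and miR-125b-5p at -1.47 and -2.65.

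The miR-195/miR-497 group was scarce in both sources. miR-195a-5p had 27.3, 7 and 4 counts in colon EVs and 0.5, 1 and 3.17 counts in BMDC EVs. Scaled, this was 54.3, 34.8 and 25.1 CPM against 3.24, 10.01 and 16.0 CPM, so that each colon EV library was above each BMDC EV library although the BMDC EV counts were near or below 3. From the summed counts, 38 and 5 after rounding, the ratio of colon EVs to BMDC EVs was 3.98 (exact 95% interval 1.57 to 13.0, for counting error alone). It did not reach the count filter, and in the edgeR fit without a filter its log2 fold change was -2.65 (adjusted p = 0.0237). Per 100 counts of miR-16-5p, the miRNA that differs from it by 2 bases over 21, miR-195a-5p had 0.110, 0.101 and 0.0658 counts in colon EVs and 0.00462, 0.0117 and 0.0136 counts in BMDC EVs.

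miR-497a-5p had 4, 1.33 and 0 counts in colon EVs and 0, 0 and 5 counts in BMDC EVs. The sources overlapped, and the ratio of BMDC EVs to colon EVs, 1.91, had an exact 95% interval from 0.439 to 8.29. A difference was not detectable at this depth. The opposite arms of this pair did not pass the filter either, miR-195a-3p with at most 2 counts in a library and miR-497a-3p at 0 throughout. Muscle and mesenchyme miRNAs, as a list of 6, summed to 1461 to 2654 CPM in colon EVs and 70.6 to 210 CPM in BMDC EVs. Of that list 2 were tested and both were higher in colon EVs, and so were both of 2 miRNAs of endothelium, which summed to 785 to 1316 CPM and 196 to 543 CPM, respectively. The part of these cell types in the level of miR-195a-5p was not tested.

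The X-linked cluster showed the opposite pattern, with 3 arms that were rare in colon EVs and between 10.7-fold and 18.5-fold higher in BMDC EVs. miR-322-5p, the member with the seed of miR-16, had 23.5, 13.5 and 12 counts in colon EVs and 111, 53 and 147 counts in BMDC EVs. Its level was 46.7, 67.1 and 75.3 CPM in colon EVs and 719, 531 and 740 CPM in BMDC EVs. The lowest BMDC EV library was far above the highest colon EV library, and the rank of miR-322-5p among tested miRNAs went from 170 to 76. The log2 fold change was 3.42 (SE 0.38, edgeR adjusted p = 2.21e-07).

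miR-351-5p, the member with the seed of miR-125, had 16, 8 and 11 counts in colon EVs and 122, 72 and 183 counts in BMDC EVs. Its level was 31.8, 39.7 and 69.1 CPM in colon EVs and 790, 721 and 921 CPM in BMDC EVs. Its log2 fold change of 4.21 (SE 0.40, edgeR adjusted p = 2.16e-08) was the highest among the tested members.

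miR-503-5p, whose seed differs from that of miR-16 in its last base, had 3, 2 and 2 counts in colon EVs and 20.3, 12.5 and 31.7 counts in BMDC EVs. The colon EV counts were at or below 3 in each library. It passed the filter through the BMDC EV libraries alone, so that a difference was built into its being tested, and its log2 fold change of 3.95 (SE 0.58, edgeR adjusted p = 5.74e-06) is read with that limit. From the summed counts the ratio was 17.4 (exact 95% interval 7.99 to 45.1, for counting error alone).

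miR-322-3p, the opposite arm of Mir322, had 2, 1 and 0 counts in colon EVs and 1, 0 and 5 counts in BMDC EVs. The sources overlapped, and the ratio of BMDC EVs to colon EVs was 3.81 (exact 95% interval 0.815 to 23.6). The rise seen for the 5p arm could not be followed in the 3p arm at these counts.

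Other products of the same stretch of chromosome X were too rare for the filter. miR-351-3p had 0, 1 and 0 counts in colon EVs and 7, 10 and 12 counts in BMDC EVs. miR-503-3p had 3, 0 and 1 counts in colon EVs and 8, 17 and 16 counts in BMDC EVs. Both were higher in each BMDC EV library, and with a filter on 2 libraries in place of 3 their log2 fold changes were 5.13 and 4.14 (edgeR adjusted p = 0.000118 and 0.000144), with the limit that only BMDC EV libraries carried them past it. Of the 7 listed arms of the neighbouring hairpins Mir542, Mir450a and Mir450b, 0 were tested and 2 were at 0 in every library. Among them miR-542-3p had 1 count in each colon EV library and 27.7, 0 and 8 counts in BMDC EVs, so that the BMDC EV libraries differed widely among themselves. miR-542-5p had 3, 1 and 0 counts in colon EVs and 3, 4 and 6 counts in BMDC EVs. In CPM, miR-542-5p was higher in each BMDC EV library, on these few counts. The rest of the listed arms did not separate the sources.

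Ratios between the groups within a library need no scaling between libraries and were compared by an exact two-sided permutation test, whose smallest p with 3 against 3 libraries is 0.1. The log2 ratio of the miR-322/miR-503/miR-351 group to the miR-15/16 group was -8.43 ± 0.64 in colon EVs and -5.81 ± 0.32 in BMDC EVs (SD, n = 3). This ratio was higher in each BMDC EV library, by 2.62 on average. The log2 ratio of the miR-195/miR-497 group to the miR-15/16 group was -10.003 ± 0.52 in colon EVs and -13.01 ± 1.47 in BMDC EVs, and it was lower in each BMDC EV library, with a difference of -3.003. The BMDC EV side of it rested on 0.5, 1 and 8.17 summed counts of the miR-195/miR-497 group. The log2 ratio of the X-linked group to the miR-195/miR-497 group was 1.57 ± 1.07 in colon EVs and 7.19 ± 1.75 in BMDC EVs, a difference of 5.63. All 3 differences reached p = 0.1, the smallest this exact test allows, and 0.1 after adjustment over the 3 ratios. The log2 ratio of the X-linked group to the miR-195/miR-497 group is the difference of the other ratios in each library. Its separation of the sources therefore followed from theirs and is no further result.

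**Figure D4:**
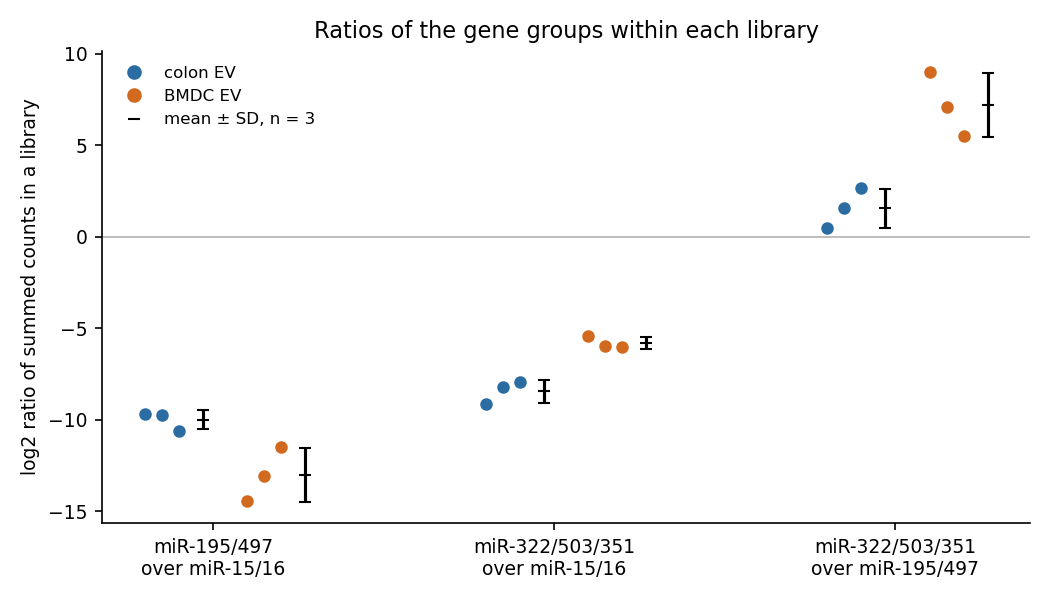
Log2 ratio of the summed counts of the gene groups within each library, with colon EVs in blue, BMDC EVs in orange and the mean ± SD of 3 libraries in black. For each of the 3 ratios the sources do not overlap, and the ratios with the miR-195/miR-497 group spread more widely in BMDC EVs.

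In CPM, the sum over the miR-15/16 group was 41662 ± 7837 in colon EVs and 92568 ± 24245 in BMDC EVs (SD, n = 3), a ratio of 2.22. The sum over the miR-322/miR-503/miR-351 group was 122 ± 34.3 and 1623 ± 235, a ratio of 13.3. The sum over the miR-195/miR-497 group was 42.9 ± 18.6 and 18.1 ± 20.2, with overlapping libraries.

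Ratios between single members, 5 in all, were chosen after their values were seen and are given as a description. With 3 against 3 libraries the exact permutation test could call none of them, since its smallest p is 0.1. Between the miR-15 paralogs, the log2 ratio of miR-15a-5p to miR-15b-5p was -1.54 ± 0.044 in colon EVs and -2.71 ± 0.64 in BMDC EVs (SD, n = 3), lower in each BMDC EV library (exact permutation p = 0.1, adjusted p = 0.125). The log2 ratio of miR-15b-5p to miR-16-5p was -5.91 ± 0.22 in colon EVs and -5.98 ± 0.37 in BMDC EVs, with overlapping libraries (exact permutation p = 0.8, adjusted p = 0.8). The log2 ratio of miR-15a-5p to miR-16-5p was -7.45 ± 0.22 in colon EVs and -8.68 ± 0.27 in BMDC EVs, lower in each BMDC EV library (exact permutation p = 0.1, adjusted p = 0.125). Within the X-linked cluster, miR-351-5p exceeded miR-322-5p in all 3 BMDC EV libraries and in 0 of 3 colon EV libraries, and the log2 ratio differed by 0.78 (exact permutation p = 0.1, adjusted p = 0.125). The log2 ratio of miR-503-5p to miR-322-5p differed by 0.52 with the same p-values, on 2 or 3 counts of miR-503-5p in each colon EV library.

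The seed is the unit that meets targets, and the seeds of miR-16 and of miR-351, which other miRNAs share, were made up differently. miRNAs with the seed of miR-16 held 3.54% ± 0.439 of all counts in colon EVs and 10.8% ± 2.30 in BMDC EVs (SD, n = 3). miR-16-5p was 97.5% ± 0.353 of them in colon EVs and 97.4% ± 0.401 in BMDC EVs, so that it set the total in both. Within the small remainder miR-322-5p and miR-15a-5p changed order. miR-322-5p was 0.158% ± 0.0567 of the seed in colon EVs and 0.740% ± 0.223 in BMDC EVs, while miR-15a-5p was 0.561% ± 0.0783 and 0.240% ± 0.0468. miR-15b-5p held 1.63% ± 0.237 and 1.58% ± 0.387, and miR-195a-5p 0.0898% ± 0.0227 and 0.00975% ± 0.00465.

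Use within a seed was tested with edgeR's differential usage test over 63 miRNAs of 23 seeds, a test added after the data were seen, which called 31.7% of these miRNAs. Relative to the miR-16 seed, miR-322-5p was higher in BMDC EVs by 2.26 on the log2 scale (adjusted p = 2.99e-06), a call that held under all 21 alternatives. miR-16-5p and miR-15b-5p had values of -0.0028 and -0.071 (edgeR adjusted p = 0.991 and 0.952). miR-15a-5p was lower by this test, with a value of -1.11 (edgeR adjusted p = 0.0169). That call was lost under 9 of the 21 alternatives, 1 of them the stricter threshold of 0.01. The others included no count filter (edgeR adjusted p = 0.0710). They also included leaving out colon EV replicate 2 (0.0711), colon EV replicate 3 (0.0767) or BMDC EV replicate 2 (0.0556).

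The seed of miR-351 behaved otherwise, since its total was lower in each BMDC EV library while miR-351-5p was higher. miRNAs with this seed held 0.776% ± 0.173 of all counts in colon EVs and 0.442% ± 0.0594 in BMDC EVs. miR-351-5p made up 0.411%, 0.363% and 0.815% of them in colon EVs and 23.4%, 21.2% and 20.1% in BMDC EVs. miR-125a-5p went from 85.1% ± 2.15 to 72.8% ± 2.06 and miR-125b-5p from 14.4% ± 2.35 to 5.59% ± 1.16. Each of these 3 shares, part of a family of 14 shares compared, was without overlap (exact permutation p = 0.1, the smallest possible, adjusted p = 0.127). In CPM, miR-125a-5p was at 7711 ± 1494 in colon EVs and 2769 ± 590 in BMDC EVs, with -1.47 as its log2 fold change (SE 0.23, edgeR adjusted p = 1.23e-05). miR-125b-5p was at 1294 ± 285 and 208 ± 30.5, a log2 fold change of -2.65 (SE 0.30, edgeR adjusted p = 2.62e-07). Relative to the seed, miR-351-5p was higher in BMDC EVs by 5.46 on the log2 scale (edgeR adjusted p = 4.75e-13), miR-125b-5p differed by -1.39 (adjusted p = 0.000338) and miR-125a-5p by -0.22 (adjusted p = 0.624). The call of miR-351-5p held under all 21 alternatives.

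**Figure D5:**
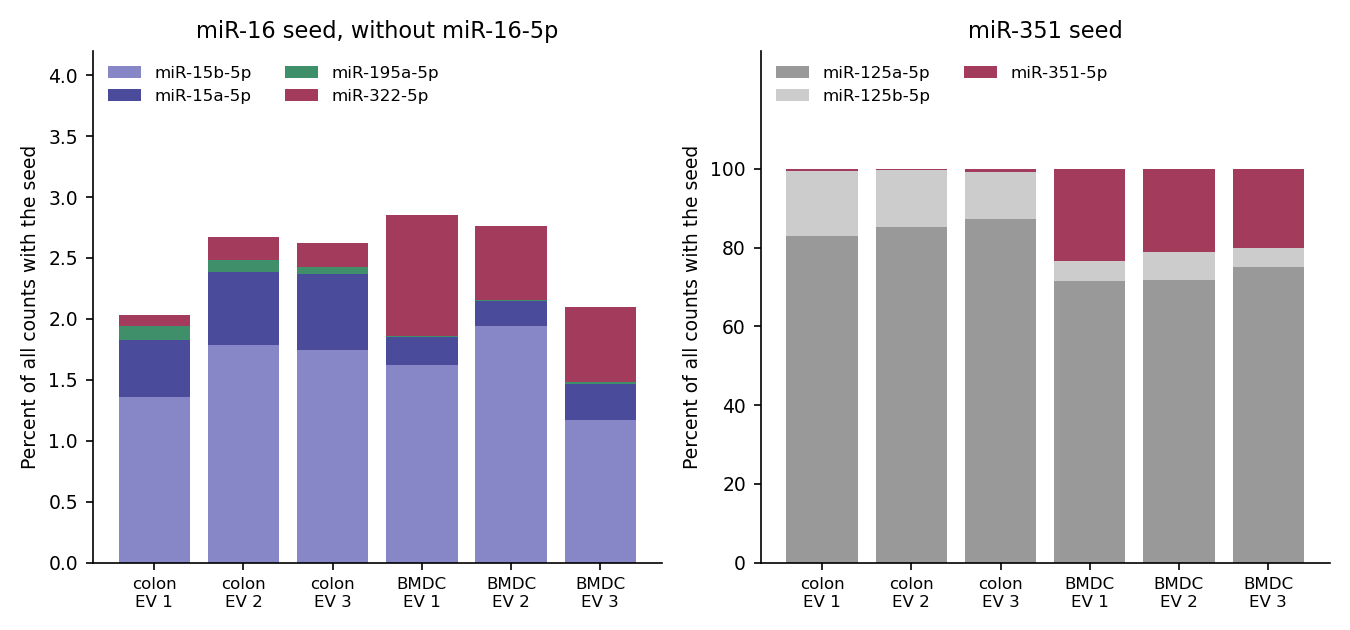
Share of each miRNA among all counts with the same seed, in percent, as stacked bars for each library; the left panel leaves out miR-16-5p, which was 97.1% to 98.0% of its seed, and miR-497a-5p. In the left panel miR-322-5p widens and miR-15a-5p narrows in BMDC EVs, and in the right panel miR-351-5p takes 20.1% to 23.4% of its seed in BMDC EVs and under 1% in colon EVs.

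Both arms passed the count filter only for miR-15b among the members. Of the 7 other arms of their hairpins in the table, 0 passed the count filter and 4 had at most 3 counts in every library. The 3p arm differed more between the sources than the 5p arm, by 1.09 on the log2 scale, but this was not called by edgeR's differential usage test (adjusted p = 0.164), which called 7 of 38 hairpins, 18.4%. Of pooled counts of the hairpin, the 3p arm was 3.00% in colon EVs (95% Wilson interval 1.90 to 4.68) and 6.11% in BMDC EVs (4.54 to 8.18), intervals that cover counting error alone. Mir503 gave its arms more evenly, with 36.4% from the 3p arm in colon EVs (15.2 to 64.6, on 11 counts) and 39.0% in BMDC EVs (30.3 to 48.6, on 105 counts). For Mir351 these shares were 2.78% (0.492 to 14.2) and 7.14% (5.02 to 10.1). For Mir322 they went the other way, 5.77% in colon EVs (1.98 to 15.6, on 52 counts) and 1.89% in BMDC EVs (0.870 to 4.07, on 317 counts), with overlapping intervals. For Mir15a they were 0% in colon EVs (0 to 1.87, on 202 counts) and 5.08% in BMDC EVs (2.35 to 10.7, on 118 counts). These intervals did not overlap, but they cover counting error alone. miR-15a-3p had 0, 0 and 0.5 counts in colon EVs, rounded to 0 in the sum, and 2, 2.5 and 1.5 in BMDC EVs. With a filter on 2 libraries the arms of Mir351 and Mir503 could be tested. Neither difference was called by edgeR (1.03, adjusted p = 0.554, and 0.32, adjusted p = 0.831).

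The tested non-members most like 3 of the members were found by the root mean square distance between log2 CPM profiles over the 6 libraries, each centred on its own mean. These profiles used rounded counts with a small count added before the log. For miR-16-5p they were miR-93-5p (0.241), miR-191-5p (0.243) and miR-140-3p (0.250). For miR-322-5p they were miR-150-5p (0.151), miR-34a-5p (0.158) and miR-1306-5p (0.201). For miR-195a-5p they were miR-126a-3p (0.354), miR-10a-3p (0.354) and miR-672-5p (0.364), at a larger distance. The BMDC EV counts of miR-195a-5p were near or below 3, so the added count narrows its profile and weighs on this choice. miR-150-5p is one of the immune markers and miR-126a-3p one of the endothelial markers used above, and the others named here are on none of the marker lists. The part of any cell type in these likenesses was not tested.

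Red cells are rich in miR-16, and their markers were measured beside it. miR-451a, which red cells carry at high levels, had 11, 0 and 9 counts in colon EVs and 4, 3 and 2.33 counts in BMDC EVs, with overlap. miR-486a-5p was at 0 in each colon EV library and had 4.5, 8 and 8.1 counts in BMDC EVs. The 3 red cell markers together summed to 0 to 56.5 CPM in colon EVs and 52.5 to 110 CPM in BMDC EVs, beside at least 34573 CPM of miR-16-5p in each library. The part of red cells in the level of miR-16-5p was not tested.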

How the data were processed

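Small RNA libraries of 3 colon EV and 3 BMDC EV preparations, made with a QIAseq miRNA kit, were grouped by the sample labels. Estimated counts of each mature miRNA were deposited by the authors, not normalized and not always whole. The submitters' processing notes name STAR 2.7.6a, featureCounts 1.6.3, DESeq2 1.30.1 and GRCm38 (mm10) without their roles. How reads of several loci were divided and whether molecular identifiers were counted is not given in the sources used here. Values of miR-16-5p were not whole in 6 of 6 libraries, those of miR-15a-5p and miR-15b-5p in 5, those of miR-195a-5p, miR-322-5p and miR-503-5p in 3 and those of miR-351-5p in 0, so miRNAs of like sequence are uncertain to that extent. Reads were not taken as independent molecules.

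Counts were rounded and tested in R 4.3.3 with edgeR 4.0.16 (TMM, quasi-likelihood test, Benjamini-Hochberg) over 220 miRNAs that reached 10 counts in 3 or more libraries. Standard errors were the log2 fold change divided by the square root of F. CPM used unrounded counts, apart from the log2 profiles of the likeness and pairing comparisons, which used rounded counts with a small count added. Arms within hairpins and miRNAs within seeds were compared with edgeR's differential usage test, and ratios within libraries by exact permutation in SciPy 1.17.1. On simulated data the source test recovered 66 of 66 changed miRNAs among 213 and called 2 unchanged ones. The arm test recovered 8 of 9 changed hairpins among 33 and the seed test 7 of 7 changed seeds among 22. No libraries were duplicates by a chi-square test. Of the 1966 names, 1675 matched a RefSeq sequence.

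All 10 members are named. Other arms of their hairpins, neighbours of the X-linked cluster and miRNAs with a member's seed were named where they reached the same filter and counted otherwise. Those named below that filter (the 4 further miRNAs with the miR-16 seed, miR-6367, miR-6394, miR-15a-3p, miR-195a-3p, miR-497a-3p, miR-351-3p, miR-503-3p, miR-542-5p and miR-542-3p) were singled out after their values were seen. The 3 most like miRNAs were named for miR-16-5p, miR-195a-5p and miR-322-5p. Members and lists were chosen with earlier results of these data known. Alternatives were DESeq2 1.42.0, limma 3.58.1 with voom, other scalings and filters, unrounded counts, a replicate block, the study's cutoffs, an adjusted p under 0.01 and leaving out each library. Figures were drawn with matplotlib 3.10.9.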

Additional observations from a re-analysis of the deposited data

How the results depend on the processing

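The 6 calls among the members, all higher in BMDC EVs, were made again in number with DESeq2, limma with voom, every scaling, both further filters that keep a count minimum, unrounded counts and an adjusted p under 0.01. These settings called between 158 and 193 of all miRNAs, of which 220 to 258 were tested. With the study's cutoffs, which ask for a base level of at least 100, 2 members were called, miR-15b-5p and miR-16-5p, since the others stood below that level. Those cutoffs called 85 of all 220 tested miRNAs. With no count filter 4 of the 10 members were called, 3 higher in BMDC EVs and miR-195a-5p higher in colon EVs. The same fit called 231 of 771 miRNAs. Leaving out 1 library gave between 5 and 6 calls, because miR-503-5p was no longer tested without any 1 BMDC EV library. With a filter on 2 libraries, added after the data were seen, 6 members were called in each case, beside 175 to 190 of all miRNAs. The log2 fold change of miR-15a-5p, called under no setting, turned to -0.10 with DESeq2 and with DESeq2's size factors, -0.47 with no filter, -0.13 with edgeR's own filter, -0.061 with a filter on 2 libraries and -0.048 with the replicate block, and ran from -0.27 to 0.65 when 1 library was left out (-0.21, -0.27 and -0.18 without colon EV replicates 1, 2 and 3). With the filter on 2 libraries it was -0.15 and -0.063 without colon EV replicates 2 and 3 and -0.45 without BMDC EV replicate 3. The cause was not tested. Over all alternatives the log2 fold change of miR-322-5p was between 2.90 and 4.02, of miR-351-5p between 3.62 and 4.75, of miR-503-5p between 3.27 and 4.42, of miR-16-5p between 0.62 and 1.71 and of miR-15b-5p between 0.57 and 1.601. Scaling moved the median of the same 220 miRNAs by -0.13 (DESeq2's size factors), 0.20 (upper quartile) and 0.45 (library size alone). Calls toward BMDC EVs and toward colon EVs were then 85 and 86, 97 and 75, and 105 and 70, beside 89 and 80. Group ratios kept their direction throughout, with differences from -3.76 to -2.26 for miR-195/miR-497 over miR-15/16, 2.26 to 2.86 for miR-322/miR-503/miR-351 over miR-15/16 and 4.73 to 6.48 for miR-322/miR-503/miR-351 over miR-195/miR-497. Rounded counts gave no ratio with miR-195/miR-497 in 1 library. The miR-15b arm difference was between 0.80 and 1.34 and never called. Replicate numbers are shared by the sources. Deviations of same-numbered libraries from the mean of their source correlated at -0.14, -0.06 and -0.13, and those of other pairs at -0.037 to 0.14. This gave no sign of pairing, but with 3 libraries per source it cannot exclude a shared animal or batch. The fit with the replicate block called 6 members, beside 164 of all 220 tested miRNAs. Depth limited miR-195a-5p, miR-497a-5p and miR-322-3p in both sources and miR-503-5p in colon EVs.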
